A study of Mus musculus with 25 samples.

Results

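The response of the wild-type (WT) *soleus* to a single bout of running was read from 12 of the 25 RNA libraries of the series, 7 from mice killed 60 minutes after exercise and 5 from mice at rest, 1 library per mouse. The libraries were chosen by the genotype and time point that head each column of counts, and the other 13, from mice lacking DNMT3A in muscle (mD3AKO, 7 at rest and 6 after exercise), entered a separate repeat of the comparison, the test of its difference between genotypes and 1 alternative fit over all 25 libraries. All WT mice were 12 weeks old, of C57BL/6 background and carried *Dnmt3a* flox/flox without Cre, so that the floxed alleles are shared by both groups and no mouse with unmodified *Dnmt3a* was included. The mD3AKO mice carried the same floxed alleles with mCK-Cre, a transgene under the muscle creatine kinase promoter. The exercised WT mice (4 females, 3 males) ran for 30 minutes on a treadmill at 16 m/min and 5% incline, and the rested WT mice (2 females, 3 males) spent 30 minutes in a sham treadmill arena and were killed at the same time. Before the day of this bout, the study's protocol made mice familiar with the treadmill by 10 minutes of running at 10 m/min on 3 consecutive days. Mice are called by the number in their labels, and these numbers pair no animals.

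The *soleus* is a postural muscle rich in slow, oxidative fibers. When such a muscle contracts, calcium, cAMP, stress kinases and circulating hormones act on transcription factors already in the fiber, and the first genes to respond are mostly regulators of transcription and signalling, such as the NR4A receptors and the AP-1 factors. Metabolic genes under the coactivator PGC-1α, chaperones, and targets of the glucocorticoid receptor are known to follow within hours, before the genes of the contractile and respiratory machinery.

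Between 26852372 and 37431801 reads were counted on genes per WT library, and a level of 1 CPM (counts scaled to library size) rests on about 32.9 reads in the median library. Slow fiber genes were at 27931 to 43628 CPM in sum in every library, and the fast fiber genes at 21942 to 36989 CPM, with all 8 and all 10 genes detected. Some libraries stood apart. The rested mice 11 and 13 had 78.3 and 121 CPM of *Egr1*, against 3.01 to 7.14 CPM in the other rested mice. The rested mouse 1 had 48.5 CPM of *Angptl4*, against 4.15 to 8.23 CPM in the other rested mice. Schwann cell markers summed to 281 CPM in the rested mouse 20 and to 478 and 430 CPM in the exercised mice 22 and 25, against 75.0 to 130 CPM in the other 9 mice. Of 112 called genes that are named by the rule, 27 lost the call without the rested mice 11 and 13 and 21 without mice 20, 22 and 25, and both of these fits, chosen with the values in view, have fewer mice.

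A small part of the genes was called changed after exercise, and the largest rises exceeded the largest falls. The quasi-likelihood F test of edgeR was run on 15527 genes, and 617 were called at a Benjamini-Hochberg adjusted p under 0.05, or 3.97%, with 369 higher (2.38%) and 248 lower (1.60%) after exercise. In the same test 2133 genes had an unadjusted p under 0.05. The counts of called list members given below are to be read against the shares called over all tested genes. A few calls on a short list can lie near those shares. The values of the exercised mice did not overlap with those of the rested mice for 276 of the 369 genes called higher and 163 of the 248 called lower. Over all 15527 tested genes, 499 (3.21%) were without overlap in either direction. Calls and overlap rest on the same values, so the lack of overlap is no separate support for the calls. A rise of at least 1 on the log2 scale was seen for 121 called genes and a fall of that size for 55. The called rises had a median log2 fold change of 0.72 and reached 5.31, and the called falls had a median of -0.64 and reached -2.37. Because 1 *soleus* holds many cell types, a lower level of a gene from fewer cells of a type and from less RNA per cell cannot be told apart.

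**Figure D1:**
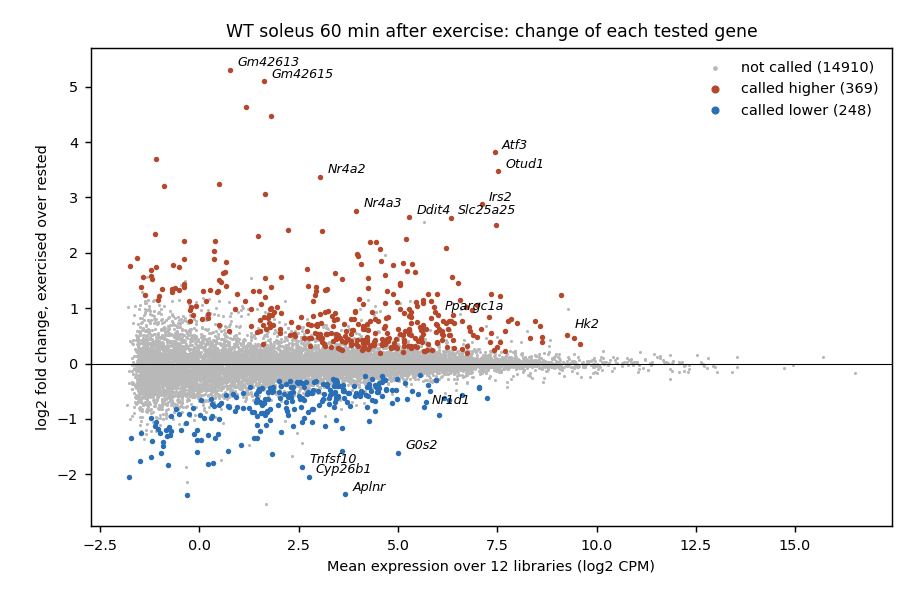
Change of each of the 15527 tested genes (log2 fold change of exercised over rested WT mice, vertical axis) against its mean expression (log2 CPM over 12 libraries, horizontal axis); red and blue points are the 369 genes called higher and the 248 called lower, and grey points were not called. The rises reach 5.31 and the called falls -2.37.

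The NR4A orphan nuclear receptors, transcription factors that need no ligand and that are among the first genes induced by contraction, rose as a family, with 3 of 3 members called. *Nr4a3* was at 4.09, 6.24, 5.09, 1.20 and 1.05 CPM in the rested mice 1, 11, 13, 14 and 20 and at 22.3, 15.2, 39.3, 20.5, 17.4, 25.9 and 25.7 CPM in the exercised mice 4, 5, 9, 16, 18, 22 and 25. Every exercised mouse was thus above every rested mouse, and the rested mice 14 and 20 were the lowest of all. Its log2 fold change was 2.75 ± 0.39 (SE), with an adjusted p of 0.00066 by edgeR. *Nr4a2* averaged 1.26 ± 0.51 CPM over 5 rested mice and 13.0 ± 7.48 CPM over 7 exercised mice (mean ± SD, as for all further pairs of means), a log2 fold change of 3.37 ± 0.42. *Nr4a1* rose from 38.3 ± 19.3 to 112 ± 28.7 CPM, a log2 fold change of 1.56 ± 0.28, and its highest rested values, 53.6 and 64.0 CPM, came from mice 11 and 13. All 3 calls held without any single mouse.

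Among the AP-1 and ATF factors, leucine-zipper proteins that join in pairs on DNA, 5 of 10 tested genes rose and 0 fell, with a median log2 fold change of 0.87 against -0.01 over all tested genes. *Atf3*, a stress-induced repressor of this family, had the largest rise among the genes with a mean of at least 0 log2 CPM that lie outside *Ppargc1a*. It was at 37.3, 15.1, 16.4, 21.9 and 9.67 CPM in the rested mice and at 72.3, 55.0, 523, 583, 414, 277 and 49.4 CPM in the exercised mice 4, 5, 9, 16, 18, 22 and 25. The groups did not overlap, but the exercised mice spanned a wide range, with mice 9, 16, 18 and 22 high and mice 4, 5 and 25 low. The log2 fold change was 3.81 ± 0.70, with an adjusted p of 0.00506 by edgeR, and 3.63 without the rested mice 11 and 13, where the call was lost (adjusted p = 0.0617). *Maff* and *Mafk*, small Maf proteins without an activation domain, rose with little spread, by 2.20 ± 0.21 and 0.87 ± 0.06 on the log2 scale. *Jun* rose from 75.3 ± 16.9 to 148 ± 53.8 CPM and *Fosl2* from 26.4 ± 10.7 to 48.2 ± 10.6 CPM, with overlapping groups and adjusted p of 0.028 and 0.0437 by edgeR. The count of rises fell to 3 without any single one of the exercised mice 16 and 18 and the rested mice 1, 14 and 20, and to 3 without mice 20, 22 and 25.

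*Fos* lay just outside the threshold, at a log2 fold change of 2.56 and an adjusted p of 0.0566 by edgeR, and was past it in 9 of the other settings planned, among them DESeq2 (adjusted p = 0.00908), the fit with sex as a term (adjusted p = 0.00544 by edgeR) and the fits without the exercised mouse 4, 5 or 25 or the rested mouse 13. Its values were 7.20, 17.9, 28.7, 4.21 and 7.18 CPM at rest and 22.1, 16.3, 150, 153, 112, 69.0 and 14.2 CPM after exercise, so that mice 9, 16, 18 and 22 were above all rested mice and mice 4, 5 and 25 lay within the rested range. Without the rested mice 11 and 13 its log2 fold change was 3.64 in place of 2.56, with an adjusted p of 0.0453 by edgeR, a setting chosen after the data were seen. *Fos*, *Atf3*, *Btg2* and the inducible chaperones described below were high in the same 4 exercised mice. These hold all 3 exercised males and 1 of the 4 exercised females, and the difference between the sexes was tested separately.

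The EGR zinc-finger factors, which respond to growth factors through serum response factor, had their highest values in 2 rested mice. *Egr1* was at 7.14, 78.3, 121, 3.01 and 4.55 CPM in the rested mice and at 2.79 to 15.2 CPM in the exercised mice. Its log2 fold change of -2.26 ± 0.80 was not called (adjusted p = 0.169 by edgeR) and turned to 0.87 without mice 11 and 13 (adjusted p = 0.631). *Egr2* had a log2 fold change of -1.68 ± 0.71 over all mice (adjusted p = 0.292) and of 1.44 without mice 11 and 13 (adjusted p = 0.0334, both by edgeR). For *Egr3* the values were -2.55 ± 0.79 (adjusted p = 0.102) and 1.00 (adjusted p = 0.2 by edgeR), and its fall was past the threshold in 3 other settings, among them the fit over all 25 libraries (adjusted p = 0.0182 by edgeR) and the fit without the rested mouse 20. Of the 12 tested genes of the EGR and serum response list, only *Ier5*, an immediate early gene, was called, with a rise of 1.66 ± 0.37, and that call was lost without the rested mouse 1 or 20.

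On the list of CREB partners and salt-inducible kinases, 3 of 11 tested genes rose and 0 fell. *Sik1*, a salt-inducible kinase that restrains the CREB coactivators, was at 15.8 to 33.5 CPM at rest and at 84.5 to 120 CPM after exercise, a log2 fold change of 2.08 ± 0.17 with an adjusted p of 3.73e-06 by edgeR. The phosphodiesterase gene *Pde4d*, whose product degrades cAMP, rose by 0.59 ± 0.09 and *Crem*, which encodes activators and a repressor of cAMP response elements, by 0.37 ± 0.08. *Creb1* and the coactivators *Crtc1*, *Crtc2* and *Crtc3* were not called and lay between -0.08 and 0.05. The call of *Crem* was lost without the rested mouse 11 or 14.

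**Figure D2:**
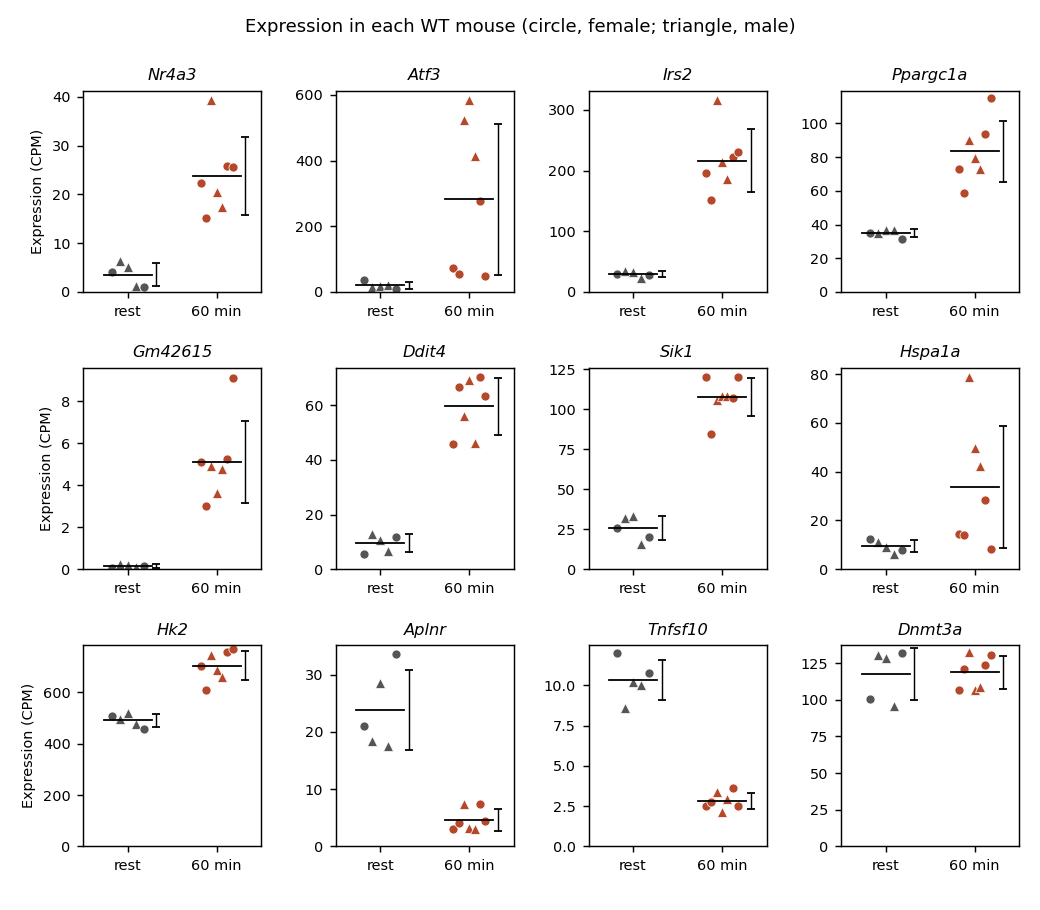
Expression (CPM, vertical axes from 0) of 12 genes in each rested (grey) and exercised (red) WT mouse, with circles for females and triangles for males; the line is the group mean and the bar its SD. *Atf3* and *Hspa1a* spread widely after exercise, and *Dnmt3a* lies at the same level in both groups.

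Promoter sequences were available for 286 of the 369 genes called higher and 174 of the 248 called lower, as the 250 bases before each RefSeq start (GRCm38.p6). They were searched on both strands for the cAMP response element TGACGTCA (CRE), which CREB and ATF proteins bind. It was found in 4.10% of the 390 promoters of genes called higher, 0.926% of the 216 promoters of genes called lower, 2.41% of the 14144 promoters of tested genes and 1.55% of all 32851 promoters. The core TGACG, searched after the data were seen and contained in every CRE, was in 33.8%, 21.3%, 25.1% and 17.8% of them. The AP-1 site TGANTCA was in 7.69%, 7.41%, 4.71% and 6.75%, the NR4A monomer site AAAGGTCA in 1.03%, 1.39%, 0.954% and 1.34%, and the CArG box of serum response factor in 1.28%, 0.926%, 1.19% and 1.47%. These are matches of letters, and no test was made of their shares. The promoters of 3 genes that rose are shown, 5′ to 3′ on the strand of the gene, with the core, which reads TGACG on one strand and CGTCA on the other (*Nr4a3* at chr4:48045055-48045304, forward strand, and *Atf3* at chr1:191183334-191183583, reverse strand) or the full CRE (*Btg2* at chr1:134079156-134079405, reverse strand) in capitals. The core stands 4 times before *Nr4a3* and 1 time before *Atf3*, and *Btg2* holds a full CRE.
Nr4a3: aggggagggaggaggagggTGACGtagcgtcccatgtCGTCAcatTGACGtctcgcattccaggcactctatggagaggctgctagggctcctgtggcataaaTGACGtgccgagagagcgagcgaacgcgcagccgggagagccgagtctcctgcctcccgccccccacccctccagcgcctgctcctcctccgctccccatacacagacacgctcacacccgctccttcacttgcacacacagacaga
Atf3: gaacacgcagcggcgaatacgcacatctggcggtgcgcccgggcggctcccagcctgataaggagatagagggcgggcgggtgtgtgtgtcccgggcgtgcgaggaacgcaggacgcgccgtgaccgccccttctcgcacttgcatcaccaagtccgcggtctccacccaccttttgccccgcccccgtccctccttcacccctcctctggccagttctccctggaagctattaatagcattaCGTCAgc
Btg2: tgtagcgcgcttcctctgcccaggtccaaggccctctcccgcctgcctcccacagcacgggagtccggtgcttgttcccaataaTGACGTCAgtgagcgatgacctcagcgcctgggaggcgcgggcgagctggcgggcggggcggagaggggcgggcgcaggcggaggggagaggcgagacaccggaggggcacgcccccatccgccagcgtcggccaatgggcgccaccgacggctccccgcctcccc

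*Btg2*, an antiproliferative gene whose product recruits an mRNA deadenylase, rose from 48.0 ± 18.9 to 272 ± 158 CPM, a log2 fold change of 2.5 ± 0.43. It was at 114 to 116 CPM in the exercised mice 4, 5 and 25 and at 287 to 479 CPM in the other 4, and thus above all rested mice in each. Its relative *Tob2*, of the same protein family, rose with less spread, from 44.8 ± 7.23 to 123 ± 13.8 CPM (log2 fold change of 1.46 ± 0.11, adjusted p = 1.97e-06 by edgeR). *Plk2*, a stress-responsive kinase of the same list, fell by 0.77 on the log2 scale, and 11 of the 14 tested genes on the list of p53 and GADD45 stress genes were not called.

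*Ppargc1a*, which encodes the coactivator PGC-1α and lies on the reverse strand of chromosome 5 (51454250 to 51567726), was at 35.1, 35.0, 37.0, 36.5 and 31.2 CPM in the rested mice and at 73.2, 58.8, 90.5, 79.2, 73.2, 93.8 and 115 CPM in the exercised mice. The groups did not overlap and the rested mice differed by little. The log2 fold change was 1.25 ± 0.13 with an adjusted p of 5.82e-05 by edgeR, and 1.16 without the exercised mouse 25, the highest. Its partner *Ppara*, a nuclear receptor for fatty acids, rose with it, from 33.6 ± 2.05 to 73.2 ± 7.51 CPM (log2 fold change of 1.12 ± 0.07). The other 10 tested genes of the PGC-1 and ERR list were not called, with *Ppargc1b* at -0.20 ± 0.09 and *Esrra*, *Nrf1* and *Tfam*, factors that PGC-1α works with or induces, between 0.01 and 0.06.

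Larger changes than for *Ppargc1a* itself were counted on 4 short genes annotated inside it, all of the annotation class TEC, gene models that still await experimental support. *Gm43605* (51510868 to 51514293) and *Gm42613* (51499528 to 51501458, on the opposite strand) lie in intron 2 of the 13-exon transcript, *Gm42615* (51491097 to 51492916) in intron 5 and *Gm42614* (51482752 to 51484305) in intron 7, and none overlaps an exon of *Ppargc1a* in GENCODE M21. They are 53.4 to 83.4 kb downstream of its RefSeq start. *Gm42615* was at 0.0305 to 0.257 CPM at rest and at 5.11, 3.03, 4.90, 3.63, 4.75, 5.23 and 9.12 CPM in the exercised mice, or 1 to 8 reads against 96 to 299. *Gm42613* had 0 to 4 reads at rest and 55 to 185 after exercise, *Gm42614* 2 to 8 and 71 to 195, and *Gm43605* 6 to 11 and 111 to 438. The log2 fold changes were 5.09 ± 0.38, 5.31 ± 0.49, 4.63 ± 0.34 and 4.46 ± 0.45, with adjusted p between 2.04e-06 and 3.52e-05 by edgeR, and few reads at rest make these sizes imprecise. Mouse 25 was the highest for all 4 and for *Ppargc1a*, and without it the log2 fold changes lay between 4.10 and 5.04. Whether counting used the strand of the reads was not stated, so reads of *Gm42613* and of *Ppargc1a* cannot be told apart by strand, and total RNA holds unspliced transcripts.

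The promoter of *Ppargc1a* nearest its RefSeq start (chr5:51567726-51567975, reverse strand) is shown because the gene and the intronic counts rose together. The capitals mark the core TGACG as it reads on the opposite strand, and neither a full CRE nor an AP-1 site was found in this window.
Ppargc1a: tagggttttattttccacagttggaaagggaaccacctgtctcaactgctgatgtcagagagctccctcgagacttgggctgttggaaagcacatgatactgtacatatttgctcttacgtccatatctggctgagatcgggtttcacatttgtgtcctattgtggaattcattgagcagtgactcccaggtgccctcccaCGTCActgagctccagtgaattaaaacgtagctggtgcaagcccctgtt

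Of the 369 rises, 30 were of genes not annotated as protein coding (8.13%, against 14.0% of all tested genes), the 4 inside *Ppargc1a* among them, and 19 of these lay inside a tested protein-coding gene, 15 of them without overlap with its exons. For 8 the surrounding gene rose as well, among them *Gm38034* inside *Foxo1* (1.52 ± 0.29 and 1.31 ± 0.13) and *Gm17024* inside *Ifrd1*. For the other 11 it was not called. An example is *9330162B11Rik*, on the strand opposite to *Esrrg*, which rose from 0.224 ± 0.05 to 2.15 ± 1.12 CPM (log2 fold change of 3.23 ± 0.45) while *Esrrg* was at 0.04. As for *Gm42613*, the strand from which these reads came is not known. *BB123696*, a long intergenic non-coding RNA gene, rose by 3.07 ± 0.28, from 0.576 ± 0.16 to 4.86 ± 1.74 CPM.

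Targets of the glucocorticoid receptor were the list with the most called members, 17 of 23 tested higher and 0 lower, with a median log2 fold change of 0.73. Glucocorticoids are released during exercise and under handling, and in muscle they curb protein synthesis and insulin action. *Ddit4*, an inhibitor of the growth kinase complex mTORC1, was at 5.71 to 13.0 CPM at rest and at 45.7 to 70.4 CPM after exercise, a log2 fold change of 2.64 ± 0.21 with an adjusted p of 3.23e-06 by edgeR. *Tsc22d3* (GILZ), an anti-inflammatory leucine-zipper protein, rose from 107 ± 15.6 to 248 ± 22.7 CPM (1.22 ± 0.09), and *Cebpd*, a basic leucine-zipper factor, from 6.80 ± 2.98 to 23.6 ± 7.60 CPM (1.80 ± 0.27). *Sgk1*, a kinase related to AKT, rose by 1.05 ± 0.19, *Zbtb16* by 0.73 ± 0.09, *Glul*, glutamine synthetase, by 0.73 ± 0.12, and *Fkbp5*, a cochaperone of the receptor, by 1.02 ± 0.21 with overlapping groups. The receptor gene itself, *Nr3c1*, was at -0.07. The count stayed between 15 and 17 without any single mouse and was 15 without mice 11 and 13 and 14 without mice 20, 22 and 25. *Cebpb*, called at an adjusted p of 0.0483 by edgeR, lost its call in 8 of the 12 fits without a single mouse. Many of these genes also stand on other lists, and the list was drawn up with earlier results of these data known.

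*Pdk4*, a kinase that closes the pyruvate dehydrogenase gate to carbohydrate, was at 2376 CPM in the rested mouse 1, at 330 to 937 CPM in the other rested mice and at 561 to 2051 CPM after exercise, and was not called (log2 fold change of 0.23 ± 0.41, adjusted p = 0.919 by edgeR). It was at 0.79 without the rested mouse 1 (adjusted p = 0.308 by edgeR) and at 0.0114 without the rested mouse 13. *Angptl4*, an inhibitor of lipoprotein lipase that fatty acids also induce, was not called over all mice (-0.42 ± 0.55) and was 0.95 without the rested mouse 1 (adjusted p = 0.0562 by edgeR). In males alone it was higher after exercise, by 0.80 (adjusted p = 0.00987 by edgeR).

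Of 3 tested metallothioneins, small proteins that bind zinc, *Mt1* and *Mt2* rose and *Mt3* was not called (0.99 ± 0.44, adjusted p = 0.322 by edgeR). *Mt1* was at 13.3 to 22.5 CPM at rest and at 39.9 to 62.5 CPM after exercise (log2 fold change of 1.67 ± 0.15), and *Mt2* at 0.761 to 1.93 and 2.98 to 9.20 CPM (2.41 ± 0.31), with no overlap for either. The zinc importer gene *Slc39a14* rose by 0.55 ± 0.11, which made 3 of 8 tested genes, and 0 fell. Without mice 20, 22 and 25 its call was lost (adjusted p = 0.0525 by edgeR).

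Of the Krüppel-like factors, zinc-finger regulators of metabolism and vessel function, 6 of 11 tested genes rose and 0 fell. *Klf9* and *Klf15*, both glucocorticoid targets, rose by 0.39 ± 0.06 and 0.60 ± 0.12 without overlap. *Klf4*, *Klf6*, *Klf11* and *Klf13* rose by 1.11 ± 0.27, 0.63 ± 0.15, 0.44 ± 0.10 and 0.51 ± 0.12 with overlapping groups. Without the rested mouse 14 only 2 of the 6 calls were left, those of *Klf9* and *Klf15*, and without mice 20, 22 and 25 there were 3.

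**Figure D3:**
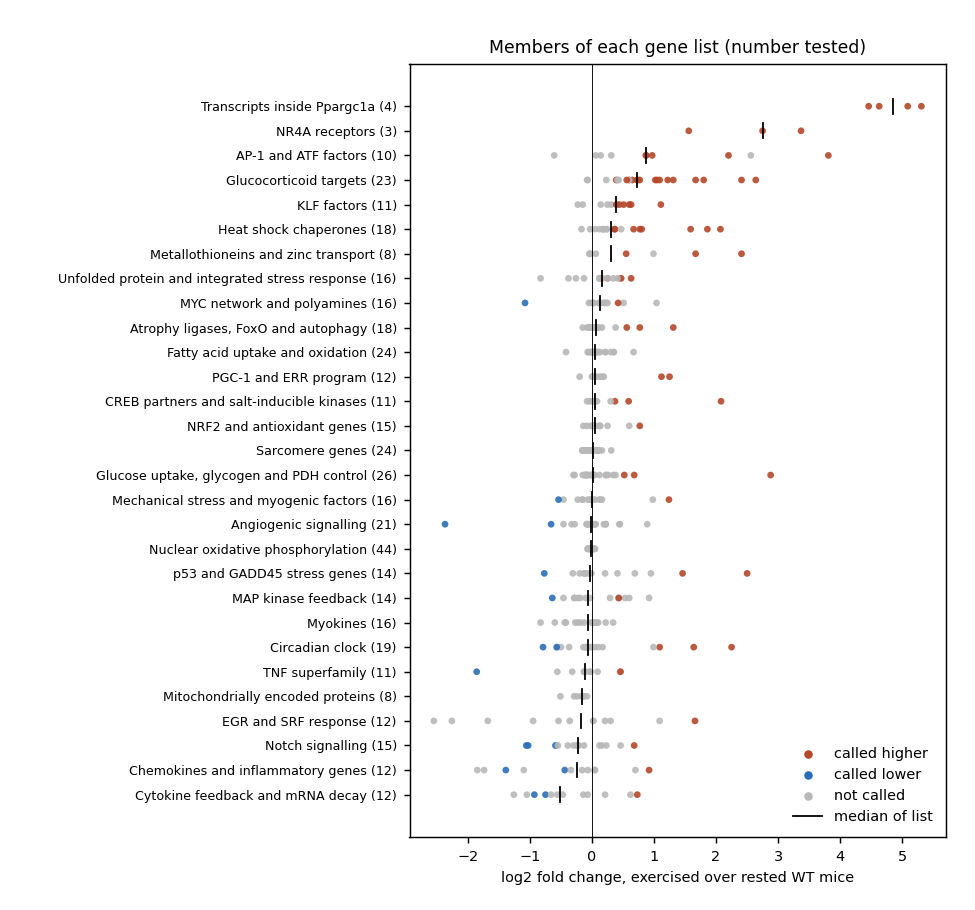
Log2 fold change (horizontal axis, exercised over rested WT mice) of each tested member of 29 gene lists, with the number tested in parentheses; red points were called higher, blue points lower and grey points not called, and the black line is the median of the list. Medians run from 4.86 for the transcripts inside *Ppargc1a* to -0.51 for cytokine feedback and mRNA decay, and the nuclear genes of oxidative phosphorylation lie within -0.07 and 0.05.

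Clock genes moved in both directions, 3 of 19 tested higher and 2 lower. *Nfil3*, a repressor of D-box genes, rose from 11.4 ± 4.68 to 54.4 ± 7.69 CPM (log2 fold change of 2.25 ± 0.20, adjusted p = 1.27e-05 by edgeR). *Per1*, a repressor of the core loop, rose by 1.09 ± 0.21, and *Ciart*, a repressor of CLOCK and BMAL1, by 1.64 ± 0.39 with overlap. *Per2* was at 0.99 ± 0.27 with an adjusted p of 0.0526 by edgeR, and was past the threshold in 8 other settings, among them DESeq2 (adjusted p = 0.0193) and the fits without the exercised mouse 22 or the rested mouse 11 or 14. *Nr1d1* (REV-ERBα), a repressor of *Arntl*, fell from 67.0 ± 10.8 to 38.7 ± 3.92 CPM, and *Bhlhe40* from 120 ± 14.1 to 80.7 ± 8.91 CPM. *Arntl* itself was at -0.50 ± 0.27 and was not called. The rested mouse 1 had the lowest *Per1*, 12.5 CPM, against 26.8 to 45.0 CPM in the other rested mice. The call of *Ciart* was lost without the exercised mouse 9 or the rested mouse 13 or 20.

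Glucose handling changed at few genes. *Irs2*, an adaptor that links the insulin receptor to PI3-kinase, was at 29.2, 35.0, 32.1, 22.9 and 28.2 CPM at rest and at 195, 151, 316, 213, 185, 223 and 230 CPM after exercise. The lowest exercised mouse was more than 4 times the highest rested mouse, and the log2 fold change of 2.88 ± 0.17 had, with that of *Impact*, the lowest adjusted p of the comparison, 4.33e-07 by edgeR. *Hk2*, the hexokinase that traps glucose in the fiber, was at 458 to 518 CPM at rest and at 610 to 768 CPM after exercise, a log2 fold change of 0.52 ± 0.07 (adjusted p = 0.000349 by edgeR). *Ppp1r3c*, a subunit that directs protein phosphatase 1 to glycogen, rose by 0.68 ± 0.12. The other 23 of 26 tested genes were not called, among them the glucose transporter *Slc2a4* (0.02) and glycogen synthase *Gys1* (-0.02).

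*Foxo1*, a transcription factor that insulin signalling holds out of the nucleus, rose from 14.1 ± 1.12 to 34.8 ± 7.48 CPM (log2 fold change of 1.31 ± 0.13), *Foxo3* by 0.56 ± 0.13, and their target *Trim63* (MuRF1), a ubiquitin ligase of the sarcomere, by 0.77 ± 0.13. The call of *Foxo3* was lost without the rested mouse 11, 13 or 14, with an adjusted p of up to 0.0587 by edgeR. The atrophy ligase *Fbxo32* was at -0.08, and 15 of the 18 tested genes of the list were not called. *Slc25a25*, a carrier of ATP-Mg across the inner mitochondrial membrane, rose from 19.9 ± 7.93 to 123 ± 21.8 CPM (2.63 ± 0.22), with mouse 9 the lowest of the exercised mice at 76.9 CPM. *Otud1*, a deubiquitinase, rose from 26.8 ± 11.9 to 297 ± 145 CPM (3.47 ± 0.40).

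Of 18 tested heat shock chaperone genes 8 rose and 0 fell, with a median log2 fold change of 0.30. *Hspa8*, *Hsp90aa1*, *Dnaja1* and *Dnajb4* rose by 0.36 ± 0.09, 0.77 ± 0.12, 0.67 ± 0.11 and 0.80 ± 0.13, while *Hsp90ab1* was at 0.05 ± 0.07 and was not called. *Hspa1a*, the stress-inducible HSP70, was at 12.5, 11.0, 8.86, 6.37 and 7.93 CPM in the rested mice and at 14.3, 14.0, 78.8, 49.8, 42.4, 28.5 and 8.09 CPM in the exercised mice 4, 5, 9, 16, 18, 22 and 25. Mouse 25 was thus within the rested range and mouse 9 several times above it. The log2 fold change was 1.86 ± 0.48 (adjusted p = 0.0438 by edgeR), and its near-identical neighbour *Hspa1b*, with which it can share reads, rose by 2.07 ± 0.51. *Dnajb1*, the cochaperone of HSP70, rose by 1.59 ± 0.38. These 3 calls and those of *Hspa8* and *Hsph1* depended on single mice, and 3 of the 8 calls were left without the exercised mouse 16 or the rested mouse 14 or 20. DESeq2 called 10 of the 18, adding *Hspb1* (log2 fold change of 0.47 by edgeR, adjusted p = 0.0299 by DESeq2 and 0.108 by edgeR) and *Chordc1*, and *Cryab*, *Bag3* and *Hsf1* were called by neither tool. The promoter of *Hspa1a* (chr17:34972157-34972406, reverse strand) is shown with a heat shock element, searched as GAANNTTC, in capitals. This motif was in 4.62% of the promoters of genes called higher, 6.48% of those called lower and 4.98% of those of tested genes.
Hspa1a: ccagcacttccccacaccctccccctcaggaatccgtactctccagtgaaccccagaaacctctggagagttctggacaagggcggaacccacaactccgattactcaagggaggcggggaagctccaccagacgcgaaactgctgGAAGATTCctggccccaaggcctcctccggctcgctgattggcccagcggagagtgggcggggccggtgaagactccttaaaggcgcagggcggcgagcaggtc

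Of 16 tested genes of the unfolded protein and integrated stress response, *Atf4* (0.25 ± 0.05), *Ppp1r15a* (0.63 ± 0.11) and *Hspa5* (0.47 ± 0.12) were called higher and 0 lower, and *Hspa5* lost its call in 9 of 12 fits without a single mouse. Without mice 20, 22 and 25 only *Ppp1r15a* of the 3 was called. *Impact*, an inhibitor of the amino acid sensor GCN2, rose from 16.7 ± 1.32 to 58.0 ± 8.43 CPM (1.79 ± 0.10). *Nfe2l2*, the antioxidant regulator NRF2, rose by 0.77 ± 0.09, and the other 14 tested genes of its list were not called. Of 16 tested genes of the MYC network and polyamine list, *Sat1*, which acetylates polyamines, rose by 0.42 ± 0.10 and *Mycn* fell by 1.08 on the log2 scale, and in the 12 fits without a single mouse the call of *Sat1* was lost in 9 and that of *Mycn* in 3. The survival gene *Bcl2l1* rose from 16.4 ± 1.56 to 44.8 ± 5.87 CPM (1.45 ± 0.09), and *Fam107a*, an actin-associated gene of stress responses, from 2.43 ± 0.13 to 12.8 ± 2.86 CPM (2.40 ± 0.15). *Kcna5*, a voltage-gated potassium channel, rose by 1.16 ± 0.09. *Abra* (STARS), an actin-binding activator of serum response factor signalling, rose from 304 ± 57.5 to 720 ± 263 CPM (1.24 ± 0.24), and the other stretch and myogenic genes were not called except *Myf5*, which fell by 0.54 on the log2 scale from 2.11 ± 0.25 to 1.44 ± 0.18 CPM. Both calls were lost without the rested mice 11 and 13 (adjusted p = 0.0699 for *Abra* and 0.179 for *Myf5* by edgeR), and that of *Myf5* in 6 of 12 fits without a single mouse.

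Among the genes that fell were receptors and ligands of vessels. *Aplnr*, the endothelial receptor of apelin, had the largest fall among called genes with a mean of at least 0 log2 CPM. It was at 21.0, 18.4, 28.5, 17.5 and 33.6 CPM at rest and at 2.98, 4.04, 7.34, 3.19, 2.94, 7.38 and 4.36 CPM after exercise, a log2 fold change of -2.37 ± 0.25 with an adjusted p of 6.17e-05 by edgeR. *Kdr*, the main VEGF receptor, fell from 100 ± 15.5 to 63.1 ± 8.09 CPM, while *Vegfa* was at 0.22 ± 0.09 and was not called (adjusted p = 0.297 by edgeR). In all, edgeR called 2 of 21 tested genes of angiogenic signalling lower and 0 higher (9.52% called, against 3.97% of all tested genes), and up to 2 higher without a single mouse. DESeq2 also called *Adamts1* (adjusted p = 0.0164) and *Flt1* (adjusted p = 0.0204) higher and *Tek* (adjusted p = 0.038) lower, where edgeR's log2 fold changes were 0.89, 0.19 and -0.28. Of the Notch list, which runs from ligands on 1 cell to transcription factors in its neighbour, 3 of 15 tested genes fell and 1 rose. Without a single mouse 0 to 3 rose, and 3 fell in each such fit. The ligands *Dll4* and *Jag1* fell by 1.06 and 0.59 on the log2 scale (*Jag1* was not called without the rested mice 11 and 13, adjusted p = 0.0558 by edgeR) and the target *Hes1* by 1.03, from 27.3 ± 5.79 to 13.4 ± 1.64 CPM, without overlap. *Lfng*, which modifies the receptor, rose by 0.68 ± 0.17, a call lost in 9 of 12 fits without a single mouse. *Myct1* and *Meox2*, genes active in vessels, fell by 1.13 and 0.70, and *Selp* (P-selectin) by 1.39. Other genes active in vessels were called higher, among them *S1pr1* (0.93), *Sox17* (0.79), *Gpihbp1* (0.62) and *Thbd* (0.61). They were looked up after the values were seen and are not among the named genes, and the called vessel genes thus moved in both directions.

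Markers of vessel cells were read beside these falls. Of 10 endothelial marker genes, *Emcn* and *Egfl7* fell by 0.42 and 0.49 and 8 were not called by edgeR. DESeq2 also called *Cldn5* lower (adjusted p = 0.0122) and *Esam* higher (adjusted p = 0.0351), where edgeR's log2 fold changes were -0.65 and 0.26. Of the 10 markers 7 lay below 0 and 3 above, and 6 had an unadjusted p under 0.05 by edgeR. The 10 summed to 535 to 672.5 CPM at rest and to 507 to 647 CPM after exercise, ranges that overlap, and none was at 0. Of 8 pericyte and smooth muscle markers, *Pdgfrb* and *Kcnj8* fell by 0.49 and 0.28, with sums of 903 to 988 and 802 to 1029 CPM. The call of *Kcnj8* was lost in 7 and that of *Pdgfrb* in 3 of the 12 fits without a single mouse. Without the rested mice 11 and 13 edgeR called none of *Emcn*, *Egfl7*, *Pdgfrb* and *Kcnj8*. Their log2 fold changes were then -0.313, -0.433, -0.408 and -0.219, in a fit with fewer mice. The part of cell numbers in the falls was not tested.

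*Tnfsf10* (TRAIL), a death ligand of the TNF family, was lower in every exercised mouse than in any rested mouse. It was at 12.0, 8.59, 10.2, 10.0 and 10.8 CPM at rest and at 2.16 to 3.61 CPM after exercise, a log2 fold change of -1.86 ± 0.12 and the lowest adjusted p among the falls, 8.84e-07 by edgeR. Its receptor *Tnfrsf10b* was at -0.13, and in the TNF list *Fas* alone rose, by 0.46 ± 0.10, a call lost without the rested mouse 11, 13 or 20. The 250 bases before the start of *Tnfsf10* (chr3:27316827-27317076, forward strand) are given as an example from a gene that fell, and they too hold the core TGACG (capitals, as read on the opposite strand).
Tnfsf10: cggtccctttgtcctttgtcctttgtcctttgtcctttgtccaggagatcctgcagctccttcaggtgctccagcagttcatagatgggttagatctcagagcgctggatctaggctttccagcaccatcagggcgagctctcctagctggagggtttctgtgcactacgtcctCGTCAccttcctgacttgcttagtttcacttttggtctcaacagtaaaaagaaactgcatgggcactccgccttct

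Of 12 tested genes of cytokine feedback and mRNA decay, 2 fell and 1 rose. *Tnfaip3* (A20), an inhibitor of NF-κB signalling, fell from 6.38 ± 0.54 to 3.34 ± 0.43 CPM, and *Zfp36l1*, which promotes decay of cytokine mRNA, from 10.5 ± 1.77 to 6.27 ± 0.35 CPM, whereas *Nfkbia*, the NF-κB inhibitor IκBα, rose by 0.73 ± 0.09. Of 12 tested chemokines and inflammatory genes, *Ccl9* rose by 0.92 ± 0.22 and *Cxcl12* and *Selp* fell. The call of *Ccl9* was lost in 4 fits without a single mouse and without mice 20, 22 and 25, and that of *Cxcl12* without the rested mice 11 and 13. The MAP kinase phosphatases *Dusp10* and *Dusp16* went in opposite directions, -0.64 ± 0.11 and 0.43 ± 0.09. Without the rested mice 11 and 13, 5 genes of MAP kinase feedback rose in place of 1.

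Other large falls were of genes of diverse function. *Cyp26b1*, which degrades retinoic acid, fell from 11.9 ± 6.22 to 2.92 ± 1.46 CPM (log2 fold change of -2.04 ± 0.33), and by 1.67 without the rested mouse 1, which had 22.6 CPM. The hyaluronan synthases *Has2* and *Has3* fell by 1.48 and 1.35, and *Has2* was at -0.82 and not called without the rested mice 11 and 13 (adjusted p = 0.0885 by edgeR). *G0s2*, an inhibitor of adipose triglyceride lipase, fell from 52.9 ± 14.4 to 17.3 ± 3.56 CPM (-1.62 ± 0.18). *Rrad*, a small GTPase that restrains calcium channels, fell from 19.7 ± 5.51 to 6.56 ± 1.44 CPM (-1.58 ± 0.18). The repressor gene *Prdm1* fell by 1.81, *Rassf10* by 1.79, *Fam84b* by 1.63, *Ush1g* by 1.58, *Apol10b* by 1.35 and *Gpr34*, a receptor of lysophosphatidylserine, by 1.34, all without overlap between the groups and with adjusted p from 8.75e-05 to 0.00588 by edgeR. *Afdn*, an adaptor of cell junctions, fell from 90.8 ± 10.3 to 47.4 ± 5.33 CPM, and *Kctd12b*, *Rassf9* and *Kbtbd13*, a muscle ubiquitin ligase adaptor, by 0.83, 1.24 and 0.71.

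None of 24 sarcomere genes (log2 fold changes from -0.16 to 0.31), 44 nuclear genes of oxidative phosphorylation (-0.07 to 0.05) and 8 mitochondrially encoded genes (-0.51 to -0.08) was called by edgeR or DESeq2, and 0 of each list had an unadjusted p under 0.05. Of 24 genes of fatty acid uptake and oxidation (-0.42 to 0.67) 0 were called by either tool and 1 had an unadjusted p under 0.05, and of 16 myokine genes (-0.83 to 0.34) 0 were called by either tool and 2 had such a p. The slow and fast fiber markers were also uncalled, at -0.10 to 0.11 and -0.13 to 0.31. The fast fiber gene *Myh4* varied widely between mice, at 2064 ± 2201 CPM at rest and 2069 ± 1333 CPM after exercise. Its change was thus imprecise, with an SE of 0.81 on the log2 scale. Of the satellite cell markers, *Sdc4*, a heparan sulfate proteoglycan, rose from 65.1 ± 9.39 to 132 ± 13.7 CPM, *Myf5* fell, and 6 were not called by edgeR. Among these, *Pax7* was at -0.58 ± 0.16 (adjusted p = 0.0637 by edgeR), and DESeq2 called it lower (adjusted p = 0.0187). At rest *Pax7* was at 4.83 ± 1.30 CPM, far below *Sdc4*.

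Markers of further cell types were not called with edgeR, in 0 of 8 fibroblast, 6 tendon, 8 macrophage, 2 neutrophil, 7 adipocyte, 7 Schwann cell and 5 red blood cell genes tested, and DESeq2 called 0 of them. At an unadjusted p under 0.05 there was 1 each among the fibroblast, neutrophil and adipocyte genes and 0 in the other 4 lists. The 7 tested adipocyte markers had log2 fold changes above 0, none of them called, with a median of 0.59. Their sums of 1921 to 4980 CPM at rest and 2075 to 4948 CPM after exercise overlap over nearly their whole range. *Car3* made up most of these sums, at 2962 ± 1226 and 3252 ± 926 CPM (log2 fold change of 0.13 ± 0.25), so they say little of the other markers. The 7 Schwann cell markers also lay above 0, with a median of 0.48 and sums of 75.0 to 281 and 79.0 to 478 CPM. Their part in the changes of other genes was not tested beyond the fit without mice 20, 22 and 25, in which 365 of the 617 genes remained called among 398.

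**Figure D4:**
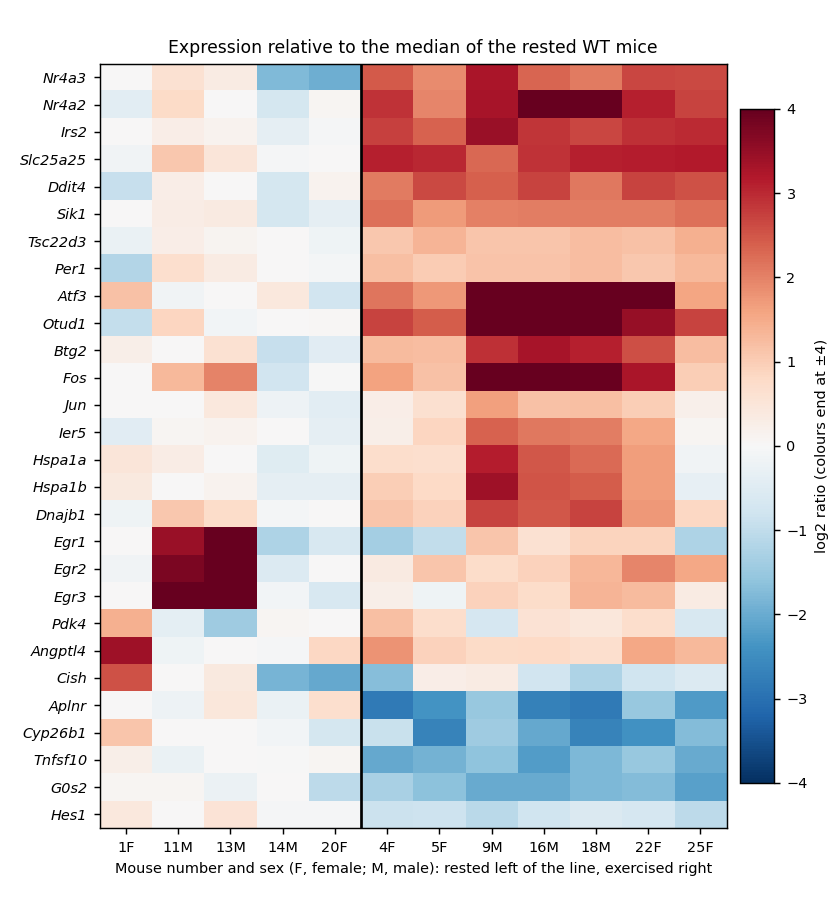
Log2 ratio of each mouse's CPM to the median of the 5 rested WT mice (colour, ending at ±4) for 28 genes (rows) in 12 WT mice (columns, with mouse number and sex). *Nr4a3* to *Per1* are higher in every exercised mouse, *Atf3* to *Dnajb1* are highest in mice 9, 16, 18 and 22, and *Egr1* to *Egr3* are highest in the rested mice 11 and 13.

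The response was compared between the sexes with 1 mean per sex and group. All WT males have mouse numbers from 9 to 18, and all WT females from 1 to 5 or from 20 to 25. A difference between the sexes therefore cannot be told apart from one between these ranges of mouse numbers. The test of the difference called 0 genes with edgeR (lowest adjusted p of 0.9999, 467 of 15527 genes at an unadjusted p under 0.05) and 1 gene, *Arid5a*, with DESeq2, where the male minus female difference was 1.46 ± 0.29 on the log2 scale. All 617 called genes changed in the same direction in both sexes. These genes were selected in the comparison of the same females and males, and that selection favours such agreement. The agreement is therefore no separate test of whether the sexes share the response. *Atf3* rose by 2.28 in females and 4.83 in males, a difference of 2.56 ± 0.87 with an unadjusted p of 0.0117, and *Hspa1a* by 0.68 and 2.71, a difference of 2.03 ± 0.55 with an unadjusted p of 0.00292, and neither difference passed the adjustment of edgeR's p. With 2 rested females the precision of such differences is low. Within the same fit, 227 genes were called in females and 254 in males.

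The exercise response was then read from the mD3AKO mice, whose libraries share no animal with the WT comparison. The library of the rested mD3AKO mouse 15 stood apart, with 39.6% of its counts on ribosomal RNA and 35.3% on mitochondrial genes, against 8.36% to 10.7% and 11.6% to 14.5% in the other rested mD3AKO mice. Of the 617 genes called in WT mice, 604 were tested in mD3AKO mice, and 599 of them (99.2%) changed in the same direction, against 65.3% of all 15210 genes tested in both. In mD3AKO mice 363 of the 604 (60.1%) were called in that direction by edgeR, against 3.98% of all genes tested in both, and 0 in the opposite one. Without mouse 15 the number was 357 of 603 (59.2%). The 363 genes are 59.1% of the 614 genes called in mD3AKO mice. The median size of the change was 0.68 in WT mice and, taken in the WT direction, 0.62 in mD3AKO mice on the log2 scale. *Irs2* rose by 2.76, *Nr4a3* by 3.50, *Atf3* by 4.77, *Gm42615* by 4.62 and *Hk2* by 0.51 in mD3AKO mice, and *Aplnr* and *Tnfsf10* fell by 2.69 and 1.66.

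The 5 genes of opposite sign were *Agrp*, *Csrp2*, *Rrad*, *4931413K12Rik* and *Gm38155*, named because their number is small, and none was called in mD3AKO mice. *Rrad* was at -1.58 ± 0.18 in WT and 0.16 ± 0.63 in mD3AKO mice, a difference of 1.73 ± 0.73 with an unadjusted p of 0.0266. The test of the difference between the genotypes' responses called 0 of 16340 genes with edgeR (403 at an unadjusted p under 0.05) and 0 with DESeq2. This interaction had its lowest p among the genes described here at *Egr1*, 0.000646 unadjusted, with -2.26 in WT and 1.80 in mD3AKO mice, where the WT value rests on the rested mice 11 and 13. *Dnmt3a* was at 118 ± 17.6 CPM in rested and 119 ± 11.2 CPM in exercised WT mice, a log2 fold change of 0.01 ± 0.09.

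**Figure D5:**
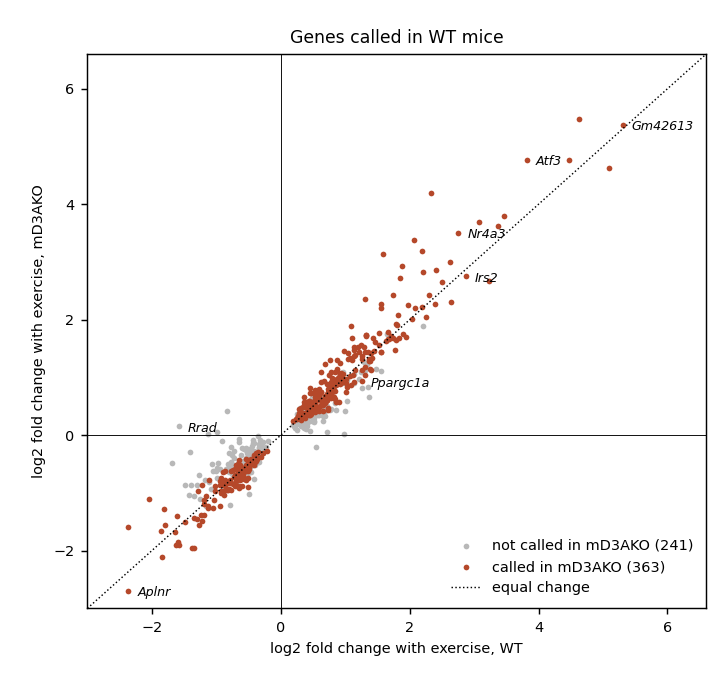
Log2 fold change with exercise in mD3AKO mice (vertical axis) against that in WT mice (horizontal axis) for the 604 genes called in WT mice and tested in both; red points were also called in mD3AKO mice (363) and the dotted line marks equal change. Of the 604 genes, 599 have the same sign on both axes.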

How the data were processed

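*Soleus* RNA was sequenced as stranded, rRNA-depleted total RNA in 75-bp paired reads. Per the study's methods and the submitters' processing notes, the authors checked reads with FastQC 0.11.5, aligned them to mm10 with STAR 2.5.3a and counted GENCODE M15 genes with featureCounts 1.5.3. Whether counting used strand was not given in the sources used here. The deposited table holds raw counts of 52636 genes, of which 52403 matched a symbol in GENCODE M21, and 0 columns of other samples. The 12 WT libraries held 26852372 to 37431801 counts.

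The comparison was made with edgeR 4.0.16 (R 4.3.3): TMM scaling, a filter on low counts (minimum count 10, total 15), which left 15527 genes, and the quasi-likelihood F test of 7 exercised against 5 rested mice with Benjamini-Hochberg adjustment over all tested genes (threshold 0.05). The standard error is the absolute log2 fold change over the square root of F. CPM values use the TMM-scaled library sizes. The scripts were tested on simulated counts. Among 31 replicate pairs 0 were identical and the lowest chi-square per gene was 16.4.

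Named genes were the 15 largest rises and 15 largest falls that were called at an average expression (log2 CPM) of 0 or more, the 10 smallest p in each direction, called members of 29 gene lists and 12 marker lists, the genes inside *Ppargc1a*, and genes the study names. One gene that this rule names is not reported here. *Fos*, the EGR genes, *Pdk4*, *Angptl4*, *Cish*, *Per2*, *Vegfa*, *Ppargc1b* and *Arntl* were singled out after their values were seen. The members and lists were chosen with earlier results of these data known. Alternatives were DESeq2 1.42.0, other filters and scalings, sex and ranges of mouse numbers as terms, each sex alone, all 25 libraries, and each mouse left out. The fits without the rested mice 11 and 13 and without mice 20, 22 and 25, and the motif TGACG, were added after seeing the data.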

Additional observations from a re-analysis of the deposited data

Results flagged for a closer look

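In 106 groups of values, 11 held a mouse whose gap to the nearest other mouse passed Dixon's limit for the range of its group, and chance flags about 1 in 20 groups. After exercise, mouse 25 stood above the others for *Gm42613* (5.64 CPM, others 1.69 to 3.17), *Gm42615* (9.12 CPM, others 3.03 to 5.23) and *Gm43605* (13.4 CPM, others 3.36 to 6.37), all inside *Ppargc1a*. Mouse 9 stood below the others for *Slc25a25* (76.9 CPM, others 116 to 139).

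At rest, mouse 1 stood above the others for *BB123696* (0.854 CPM, others 0.452 to 0.554), *Cyp26b1* (22.6 CPM, others 6.43 to 10.4), *Angptl4* (48.5 CPM, others 4.15 to 8.23) and *Cish* (27.5 CPM, others 1.16 to 6.30). Without this mouse *BB123696* rose by 3.25 and *Cyp26b1* fell by 1.67 on the log2 scale (adjusted p = 0.00462 by edgeR).

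Among the summed cell markers, neutrophil markers were at 2.16 CPM in the exercised mouse 16 (others 0.305 to 0.923), Schwann cell markers at 281 CPM in the rested mouse 20 (others 75.0 to 130) and red blood cell markers at 424 CPM in the rested mouse 11 (others 132 to 187). What these values have to do with the other genes was not tested.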

How the results depend on the processing

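The 617 calls became 556 to 822 under the other scalings, filters, terms and tools except DESeq2's Wald test, which called 888, 616 of them shared. Females alone gave 122 calls and males alone 292, with fewer mice in each. Without any single mouse there were 445 (without the rested mouse 20) to 609 calls, without the rested mice 11 and 13 there were 442, of which 355 were shared, and without mice 20, 22 and 25 there were 398. The interaction with sex called 0 genes, 1 with DESeq2, and 0 to 5 without a single mouse (5 without the rested mouse 14, 1 without the rested mouse 20). DESeq2 called 5 angiogenic, 7 Notch, 4 MYC, 5 cytokine feedback, 5 chemokine, 3 MAP kinase feedback and 4 endothelial marker genes, where edgeR called 2, 4, 2, 3, 3, 2 and 2, and 6 AP-1 and ATF, 10 heat shock, 4 unfolded protein, 6 clock and 3 satellite cell genes, where edgeR called 5, 8, 3, 5 and 2. Of 112 called named genes 0 changed sign in any of 24 settings, 87 kept the call without any single mouse, 25 lost it in at least 1 such fit, and 43 were past the threshold in every setting in which they were tested. Calls lost without the rested mice 11 and 13 include *Atf3* (log2 fold change there of 3.63), *Ier5* (1.82), *Has2* (-0.816), *Klf11* (0.454), *Klf15* (0.551), *Fkbp5* (0.886), *Abra* (1.18) and *Hspa1a* (1.93). *Has2* was at -1.48 over all mice. Those lost without mice 20, 22 and 25 include *Fosl2* (0.849), *Jun* (0.998), *Klf4* (0.978), *Klf6* (0.646), *Klf13* (0.447), *Dnajb1* (1.7), *Atf4* (0.231), *Per1* (1.05) and *Fkbp5* (0.877).

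*Fos*, *Per2* and *Egr3*, not called in the reported fit, were past the threshold in 9, 8 and 3 of the other planned settings. Genes that were not called changed sign in places. *Dnmt3a* was at -0.027 in males and at -0.0503 to 0.066 without single mice. Without the rested mice 11 and 13, *Egr1* was at 0.867, *Egr2* at 1.44, *Egr3* at 0.998 and *Pdk4* at -0.179. *Pdk4* was at 0.0114 to 0.792 without single mice. In females *Egr2* was at 1.43, *Egr3* at 0.814 and *Pdk4* at -0.248. *Angptl4* was at 0.803 in males, past the threshold (adjusted p = 0.00987 by edgeR), and at -0.656 to 0.953 without single mice, and *Cish* at -1.54 to 0.0256. The cause of these changes was not tested beyond the fits named. No paired analysis was possible because the groups share no mouse numbers.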
